A study of Mus musculus with 6 samples.

Results

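The genes described here are 9 genes of the red blood cell, out of 18482 listed for the series. They are the adult globins Hba-a1, Hba-a2, Hbb-bs and Hbb-bt, the haem synthesis gene Alas2, and 4 genes of the red cell membrane and its skeleton, Ank1, Sptb, Slc4a1 and Epb42. They were chosen by name, with their lecko against control values in an earlier analysis of these data known, so their levels are given as a description and without a test.

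Polyadenylated RNA was measured in whole ear skin of mice at postnatal day 21. The lecko group held 3 libraries from mice treated with tamoxifen whose lymphatic endothelium was targeted for deletion of Kdr, the gene of VEGFR2. The control group held 3 libraries from littermates that also received tamoxifen. No source used here names the Cre driver, the litter or sex of each mouse, which of the study's early postnatal tamoxifen schedules was followed, or whether a library came from 1 animal. Any p-value therefore reflects the variation among these libraries, part of which may be technical. Levels are in CPM, counts divided by the TMM-scaled size of each library, unless a sentence names another unit.

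Red blood cells carry oxygen on haemoglobin, a tetramer of alpha and beta globin chains that each hold a haem. Alas2 encodes the erythroid form of the first enzyme of haem synthesis. Ankyrin (Ank1) and beta spectrin (Sptb) form the skeleton under the membrane, Slc4a1 encodes the chloride and bicarbonate exchanger to which ankyrin binds, and the Epb42 protein strengthens that link. Mammalian red cells lose their nucleus as they mature, and young circulating ones keep some messenger RNA, most of it globin. Blood held in the vessels of a skin sample therefore brings globin RNA with it. Ank1 and Sptb are also known to be expressed in skeletal muscle, which samples of mouse ear can include.

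Kdr had 173, 198 and 180 counts in lecko libraries 1 to 3, against 566, 545 and 674 counts in controls 1 to 3, so each library went with its label. Kdr was the single gene called lower by edgeR's quasi-likelihood test, with a log2 fold change of -1.72 (SE 0.10) and adjusted p = 0.00026. Total counts lay between 17550952 and 17825135 in lecko libraries and between 17242921 and 17678754 in controls. Summed counts of 4 Y-linked genes were 4, 21 and 9 in the lecko libraries, against 18 in control 1, 4272 in control 2 and 4564 in control 3. Controls 2 and 3 alone exceeded 10 CPM of these genes, so sex was not balanced between the groups. Of 14856 genes with enough counts to test, 3 passed an adjusted p of 0.05, or 0.0202%, with 0.0135% higher and 0.00673% lower. None of the red cell genes was among them. Of the 9 red cell genes, 8 had enough counts, and Epb42 did not.

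The promoters of the red cell genes are shown as background, and a link between their motifs and the levels was not tested. The globins and Alas2 ran together over the libraries, with lecko 2 highest and control 1 lowest for each, while the membrane genes did not. The 250 bases before the annotated start of 7 of the 9 genes were read from RefSeq on GRCm38.p6, and no window was matched for Ank1 and Slc4a1. Capitals mark GATAA, the core bound by GATA factors such as the erythroid regulator GATA1, and CCNCNCCC, the motif of KLF1, an erythroid zinc finger factor, each on either strand.
Hba-a1, chr11:32283422-32283671, plus strand: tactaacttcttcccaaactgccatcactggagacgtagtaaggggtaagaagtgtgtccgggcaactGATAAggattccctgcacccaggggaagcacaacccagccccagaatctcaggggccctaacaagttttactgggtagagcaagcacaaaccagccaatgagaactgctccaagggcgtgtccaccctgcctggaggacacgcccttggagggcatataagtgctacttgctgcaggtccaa
Hbb-bs, chr7:103827929-103828178, minus strand: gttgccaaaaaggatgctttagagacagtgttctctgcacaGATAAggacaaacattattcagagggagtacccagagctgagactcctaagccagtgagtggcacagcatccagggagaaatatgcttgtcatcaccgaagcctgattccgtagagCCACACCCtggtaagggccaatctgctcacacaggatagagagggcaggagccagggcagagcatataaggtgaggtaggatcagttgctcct
Hbb-bt, chr7:103813924-103814173, minus strand: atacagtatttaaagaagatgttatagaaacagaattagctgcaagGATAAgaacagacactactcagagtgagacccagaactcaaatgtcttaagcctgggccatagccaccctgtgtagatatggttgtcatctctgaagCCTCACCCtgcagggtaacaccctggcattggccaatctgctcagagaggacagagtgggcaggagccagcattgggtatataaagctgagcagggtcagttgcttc
Alas2, chrX:150547167-150547416, plus strand: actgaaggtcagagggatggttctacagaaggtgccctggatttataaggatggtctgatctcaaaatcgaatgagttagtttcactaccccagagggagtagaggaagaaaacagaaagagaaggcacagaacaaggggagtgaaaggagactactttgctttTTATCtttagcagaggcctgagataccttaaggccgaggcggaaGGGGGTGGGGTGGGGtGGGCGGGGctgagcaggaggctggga
Epb42, chr2:121036878-121037127, minus strand: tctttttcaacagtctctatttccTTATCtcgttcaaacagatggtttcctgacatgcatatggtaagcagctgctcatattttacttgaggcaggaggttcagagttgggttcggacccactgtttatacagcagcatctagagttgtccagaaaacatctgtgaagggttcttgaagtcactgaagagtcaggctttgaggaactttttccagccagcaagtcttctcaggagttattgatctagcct
Sptb, chr12:76710548-76710797, minus strand: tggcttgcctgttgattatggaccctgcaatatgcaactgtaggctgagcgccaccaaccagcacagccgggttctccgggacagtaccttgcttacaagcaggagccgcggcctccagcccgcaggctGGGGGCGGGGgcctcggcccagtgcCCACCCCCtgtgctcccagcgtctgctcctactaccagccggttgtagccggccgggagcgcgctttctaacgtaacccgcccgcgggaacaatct

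The window of Hba-a2 is not printed, since over 247 bases shared with that of Hba-a1 all 247 were identical, the annotated start of Hba-a2 lying 3 bases further on in the shared sequence. GATAA or its reverse TTATC was found once in each window of the 4 globins, Alas2 and Epb42, and in none of Sptb. In the windows of the alpha globins it began 182 and 185 bases before the start (Hba-a1 and Hba-a2), and in those of the beta globins 209 and 204 bases before it (Hbb-bs and Hbb-bt). Of 32851 RefSeq promoter windows of the same length, 22.6% held it. CCNCNCCC was found once in each beta globin window, 3 times in Sptb and 4 times in Alas2, with overlapping matches in both of these last windows. It was in 45.9% of all windows. These matches describe the letters alone.

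The 4 adult globins had the highest levels of the red cell genes per length of transcript and stood above the controls in the lecko libraries when summed. Together they gave 1373, 2423 and 1824 CPM in lecko libraries 1, 2 and 3, against 833, 1169 and 1259 CPM in controls 1, 2 and 3. The groups did not overlap, but lecko 1 was closer to control 3 than to the other lecko libraries, and control 1 was the lowest of the 6. The mean was 1873 ± 527 CPM in lecko skin and 1087 ± 225 CPM in control skin (SD, n = 3 each), 1.72 times as much. As a share of all counts, globins made up 0.136% (95% exact binomial interval 0.135 to 0.138%) in lecko 1, 0.244% (0.242 to 0.246%) in lecko 2 and 0.183% (0.181 to 0.185%) in lecko 3. In the controls the shares were 0.0827% (0.0814 to 0.0841%), 0.115% (0.113 to 0.117%) and 0.128% (0.126 to 0.130%). These intervals cover counting error only and are far narrower than the spread between libraries of 1 group. In whole tissue, more red cells and more globin RNA per red cell cannot be told apart.

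Hbb-bs, the more abundant of the adult beta globin genes (chr7:103826523-103827928, GRCm38.p6), had 622, 1044 and 799 CPM in lecko libraries 1 to 3, against 364, 556 and 517 CPM in controls 1 to 3. Its groups did not overlap, and its log2 fold change was 0.78 (SE 0.24). Hbb-bt, its neighbour on the same chromosome (chr7:103812524-103813923), had 110, 203 and 184 CPM in the lecko libraries, against 78.8, 93.7 and 121 CPM in the controls. Lecko 1 lay below control 3 for this gene, so its groups overlapped, with a log2 fold change of 0.76 (SE 0.28).

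The alpha globin gene Hba-a1 (chr11:32283672-32284486) had 380, 706 and 528 CPM in lecko libraries 1 to 3, against 240, 320 and 382 CPM in controls 1 to 3. Here too lecko 1 lay just below control 3, and the log2 fold change was 0.78 (SE 0.28). Hba-a2 (chr11:32296492-32297310), a second copy of alpha globin, had 261, 469 and 313 CPM in the lecko libraries, against 150, 200 and 238 CPM in the controls. Its groups did not overlap, and its log2 fold change was 0.83 (SE 0.28). The 4 fold changes thus spanned 0.76 to 0.83 on the log2 scale, a narrower range than the SE of any of them.

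The balance between globin chains and copies was much alike in both groups. Counts of alpha over beta globin were 0.875, 0.942 and 0.855 in lecko libraries 1 to 3, against 0.880, 0.8004 and 0.973 in controls 1 to 3. Hba-a1 took 59.3, 60.1 and 62.8% of alpha globin counts in the lecko libraries and 61.7, 61.5 and 61.6% in the controls. Hbb-bt took 15.1, 16.3 and 18.7% of beta globin counts in the lecko libraries and 17.8, 14.4 and 18.9% in the controls. The groups overlapped in all 3 of these measures. The split between copies is uncertain, because 86.9% of the stretches of 50 bases in the Hba-a2 transcript also occur in Hba-a1, and 65.8% of those in Hbb-bs occur in Hbb-bt (longest coding transcripts of GENCODE M21). No such stretch was shared between an alpha and a beta globin.

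Other globin genes were close to nothing. Hbq1a and Hbq1b, members of the alpha globin cluster, had at most 4 counts in any library, as had Hbb-b1 and Hbb-b2, beta globin genes of another mouse haplotype. The embryonic globins were not analysed here.

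Alas2 (chrX:150547417-150570622) ran alongside the globins at a lower level. It had 18.3, 29.1 and 27.7 CPM in lecko libraries 1 to 3, against 14.0, 15.5 and 20.3 CPM in controls 1 to 3. Lecko 2 and lecko 3 lay above every control, and lecko 1 lay below control 3, as for Hbb-bt. The log2 fold change was 0.59 (SE 0.21). Set against globin, Alas2 gave 13.4, 12.0 and 15.2 counts per 1000 globin counts in the lecko libraries and 16.8, 13.2 and 16.1 in the controls, which overlapped.

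**Figure D1:**
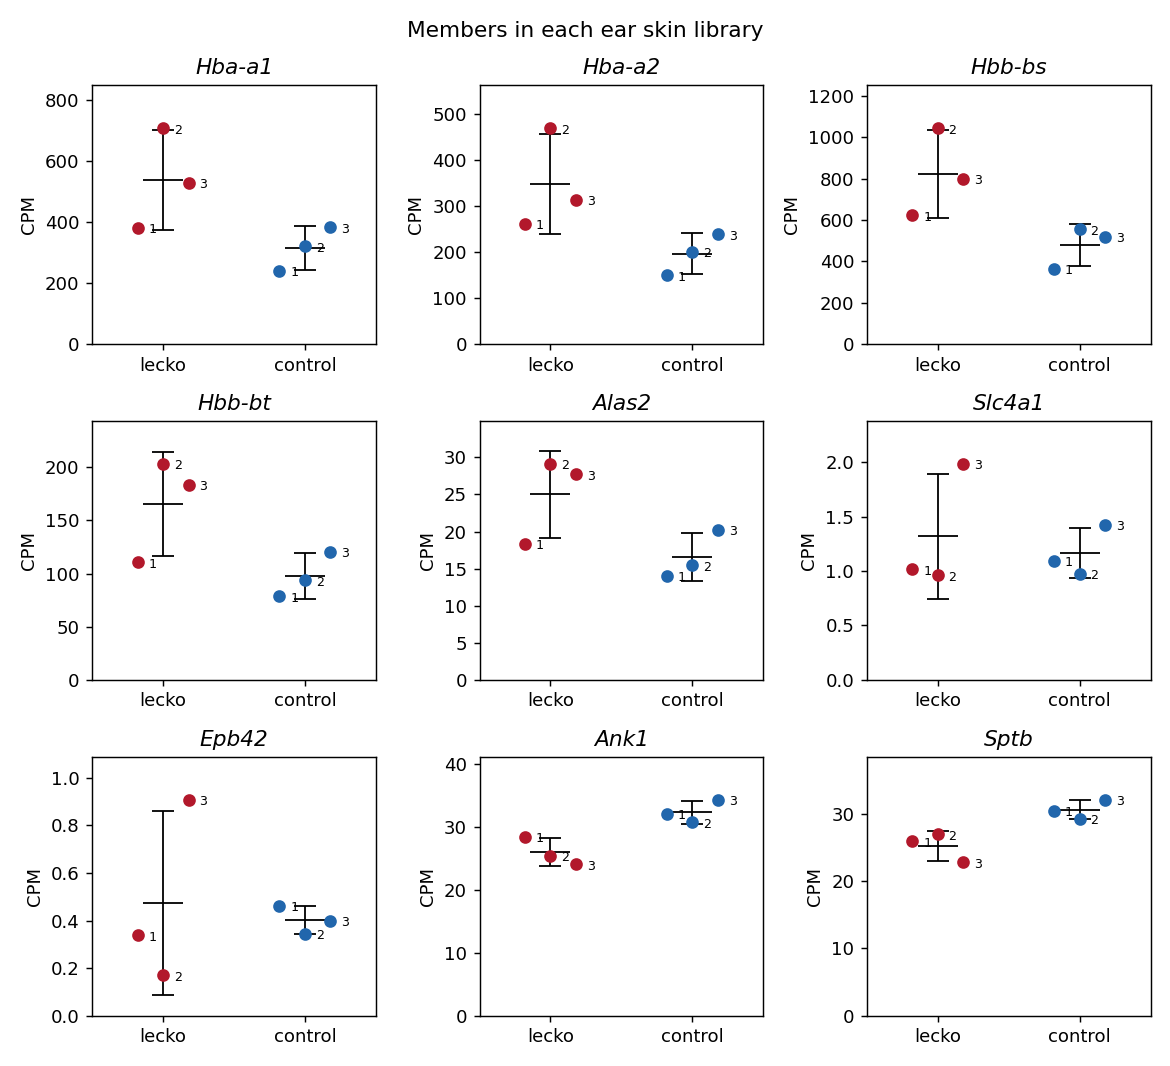
CPM (vertical axes, linear from 0, a scale for each gene) of the 9 red cell genes in lecko and control libraries. Points are libraries with their replicate number, and the bar with whiskers is the mean ± SD of 3 libraries. Lecko 2 is highest for the 4 globins and Alas2, lecko 3 for Slc4a1 and Epb42, and every lecko point lies below every control point for Ank1 and Sptb.

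The membrane genes differed among themselves, with Slc4a1 and Epb42 overlapping between the groups and Ank1 and Sptb below the controls in every lecko library. Slc4a1 (chr11:102348820-102365281), the anion exchanger gene, had 18, 17 and 35 counts in lecko libraries 1 to 3, against 19, 17 and 25 counts in controls 1 to 3. Lecko 3 was the highest of the 6, and the rest lay between 17 and 25 counts. Its level was 1.32 ± 0.577 CPM in lecko skin and 1.17 ± 0.233 CPM in control skin (SD, n = 3 each), with a log2 fold change of 0.18 (SE 0.34). With 1 library left out it lay between -0.24 (without lecko 3) and 0.36 (without lecko 2), so its direction rested on lecko 3. Summed over each group, 70 counts in lecko skin against 61 in control skin gave a ratio of 1.13 after scaling (95% exact interval 0.791 to 1.62, counting error only).

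Epb42 (chr2:121017891-121036877) had 6, 3 and 16 counts in lecko libraries 1 to 3, against 8, 6 and 7 counts in controls 1 to 3. Lecko 3 was the highest and lecko 2 the lowest of the 6 libraries. The groups summed to 25 counts in lecko skin and 21 in control skin, a ratio of 1.17 (95% exact interval 0.63 to 2.2, counting error only). This interval holds both no difference and the ratio of 1.72 of the summed globins, so these counts do not tell them apart. Fitted beside the tested genes, its log2 fold change was 0.23 (SE 0.59). With 1 library left out it lay between -0.65 (without lecko 3) and 0.62 (without lecko 2), and in the fit without lecko 2 the globins lay between 0.53 and 0.59. Lecko 2, where globins stood highest, gave the fewest Slc4a1 and Epb42 counts of the lecko group, but by few counts. For Slc4a1 it had 17 counts against 18 in lecko 1, and for Epb42 3 against 6. Per 1000 globin counts, Slc4a1 gave 0.740, 0.397 and 1.09 in lecko libraries 1 to 3 and 1.32, 0.836 and 1.13 in controls 1 to 3.

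Ank1 (chr8:22974836-23150501), the erythroid ankyrin gene, went the other way. It had 28.5, 25.5 and 24.1 CPM in lecko libraries 1 to 3, against 32.1, 30.8 and 34.4 CPM in controls 1 to 3. Every lecko library lay below every control, and the log2 fold change was -0.32 (SE 0.09). Sptb (chr12:76580488-76710547), the beta spectrin of red cells, had 26.0, 27.0 and 22.8 CPM in the lecko libraries, against 30.5, 29.3 and 32.1 CPM in the controls. Its groups did not overlap either, and its log2 fold change was -0.28 (SE 0.08). Over all genes tested, the groups did not overlap for 7.37% in the higher and 7.23% in the lower direction, and this share is given only as background for Hba-a2 and Hbb-bs above and Ank1 and Sptb below the controls, since the genes were chosen on this contrast. Counts of Ank1 over Sptb were 1.10, 0.944 and 1.06 in the lecko libraries and 1.05, 1.05 and 1.07 in the controls.

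**Figure D2:**
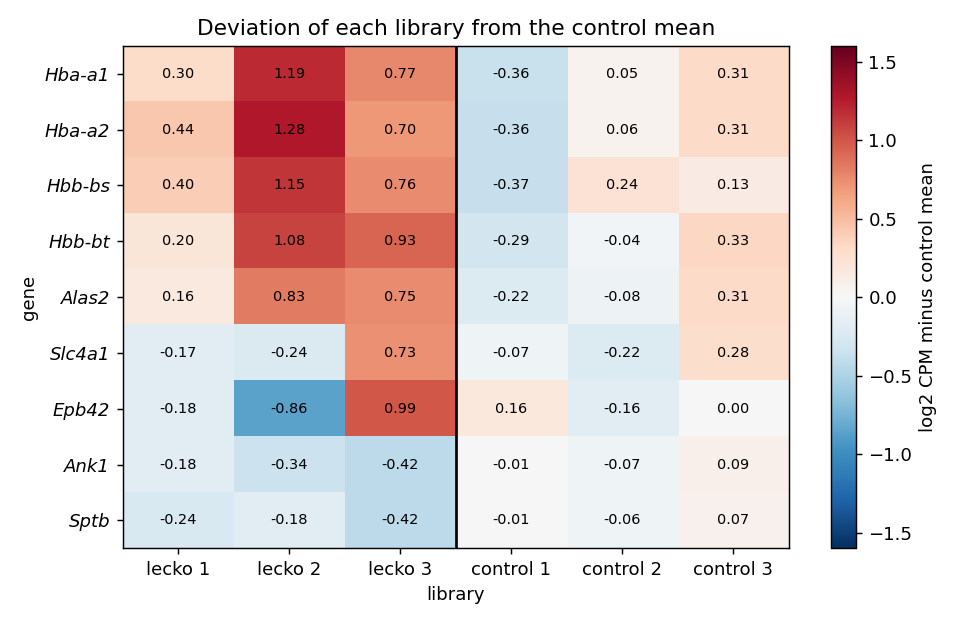
Difference in log2 CPM of each library (columns) from the mean of the 3 controls, for the 9 genes (rows), with red above and blue below that mean. The globins and Alas2 run from 0.16 to 1.28 in the lecko libraries, Ank1 and Sptb from -0.42 to -0.18, and Slc4a1 and Epb42 are positive in lecko 3 and negative in lecko 1 and lecko 2.

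The contrast between globins and membrane genes was taken in each library as the mean log2 CPM of the 4 globins minus that of the 4 membrane genes. It was 6.02, 7.08 and 6.07 in lecko libraries 1 to 3, against 5.13, 5.70 and 5.66 in controls 1 to 3, with no overlap between groups. The means were 6.39 ± 0.595 in lecko skin and 5.50 ± 0.317 in control skin (SD, n = 3 each), a difference of 0.89 on the log2 scale, which was 0.55 without lecko 2. Against Ank1 and Sptb alone the difference was 1.07, and the groups did not overlap. Against Slc4a1 and Epb42 alone it was 0.72, and they did, with 8.65, 9.87 and 8.07 in the lecko libraries and 7.75, 8.41 and 8.27 in the controls.

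Skeletal muscle genes moved with Ank1 and Sptb over the libraries. The 18 genes of a skeletal muscle list, among them Acta1 (skeletal actin), Atp2a1 (the calcium pump of fast fibres), Myh1 and Mylpf (myosin chains), summed to 8342, 7931 and 6558 CPM in lecko libraries 1 to 3, against 9231, 8766 and 9864 CPM in controls 1 to 3. All 18 had a negative log2 fold change, with a median of -0.30, against 0.01 over all genes tested, and 0 of 18 were called by edgeR, DESeq2 or limma-voom. At an unadjusted p under 0.05 by edgeR 14 of 18 were lower, where 3.68% of all genes were, among them Acta1, Ckm, Tnnt3, Tnni2, Tnnc2, Actn3, Actn2, Ttn, Neb, Ryr1, Cacna1s, Atp2a1 and Pygm. The list was chosen with earlier results of these data known, and muscle genes outside it were less uniform. Tnnt1 had a log2 fold change of -0.28 (SE 0.12), Tcap of -0.05 (SE 0.12) and Myh7 of 0.15 (SE 0.24), each with overlapping groups. Ank1 and Sptb together gave 6.53, 6.62 and 7.16 CPM per 1000 muscle CPM in the lecko libraries, against 6.78, 6.85 and 6.74 in the controls, so relative to muscle the groups overlapped. The means of this ratio were 6.77 ± 0.339 in lecko skin and 6.79 ± 0.0562 in control skin (SD, n = 3 each). Counts per gene do not separate muscle from red cell transcripts of Ank1 and Sptb.

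**Figure D3:**
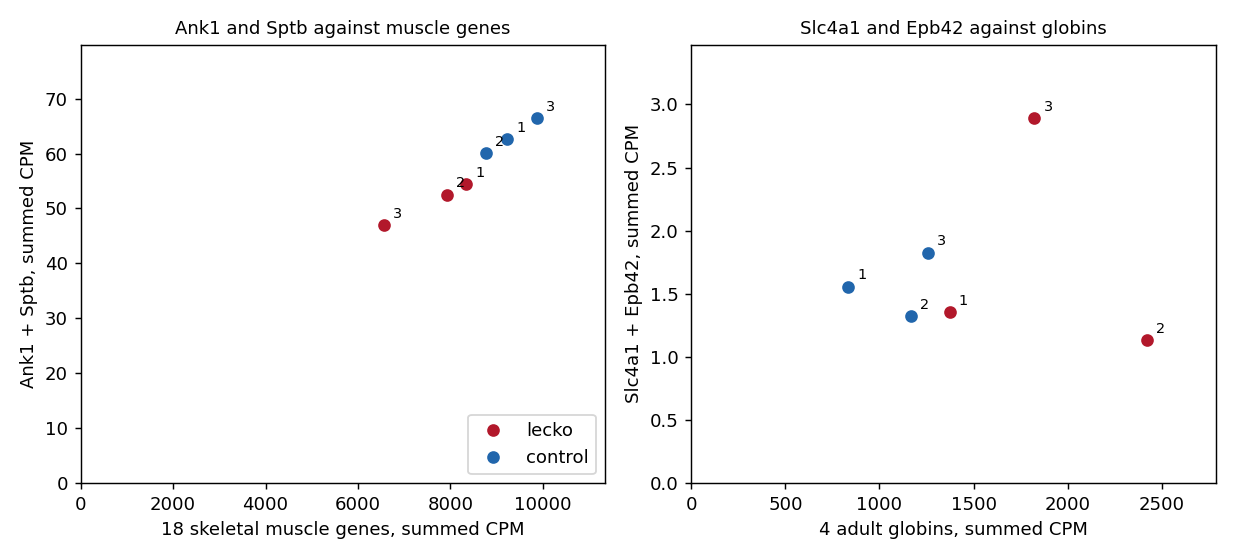
Left, summed CPM of Ank1 and Sptb against summed CPM of 18 skeletal muscle genes. Right, summed CPM of Slc4a1 and Epb42 against that of the 4 globins. Points are libraries with their replicate number, red for lecko and blue for control, and all axes start at 0. Ank1 and Sptb lie near a single line through both groups, with lecko 3 lowest at 6558 CPM of muscle genes and 46.9 CPM of Ank1 and Sptb, and the right panel shows no such line.

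Levels of different genes can be set side by side only per length. Per 1000 bases of the longest coding transcript, Hbb-bs stood at 1309 CPM in lecko skin and 763 CPM in control skin, and Hba-a1 at 770 CPM in lecko skin and 449 CPM in control skin. Alas2 reached 12.3 CPM per 1000 bases in lecko skin and 8.14 in control skin. On this scale Ank1 was at 3.17 in lecko skin and 3.94 in control skin, Sptb at 2.43 in lecko skin and 2.95 in control skin, and Slc4a1 and Epb42 at 0.291 and 0.115 in lecko skin and 0.257 and 0.0977 in control skin. Ank1 and Sptb, whose proteins bind to each other, with ankyrin also binding to the exchanger in red cells, stood above Slc4a1 per length in both groups. The value of Ank1 depends on the transcript, since its annotated coding transcripts run from 328 to 8218 bases. Per 1000 bases of the shortest, Ank1 stood at 79.4 CPM in lecko skin and 98.8 CPM in control skin. On that scale it lay above Alas2, at 13.2 CPM in lecko skin and 8.76 CPM in control skin, so the order of these genes is not settled.

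Other genes typical of red cells and their precursors were sparse. Klf1 had 2 to 3 counts in lecko libraries and 0 to 5 in controls. Rhag, a gas channel gene of the Rh complex, had 1 to 3 counts in lecko libraries and 0 to 1 in controls, and Kel, a blood group gene, at most 1 in any library.

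The rest of the erythroid programme was examined in 6 lists of 63 genes, of which 58 were listed and 43 tested. None was called by edgeR, DESeq2 or limma-voom. At an unadjusted p under 0.05, edgeR put 3 above and 2 below the controls, or 11.6% of those tested, where 8.56% of all genes passed (4.89% higher and 3.68% lower). The median log2 fold change was -0.02, against 0.01 over all genes. Counts per gene in whole skin do not separate red cell transcripts of these genes from those of other cells. A level value in these lists therefore does not show that red cell transcripts were level.

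Haem synthesis genes other than Alas2 were nearly level between the groups in whole skin. The 11 tested members of this list ran from -0.12 to 0.08 on the log2 scale, with a median of -0.03 and 0 at an unadjusted p under 0.05. Fech, which puts the iron into haem, had 91.5 CPM in lecko skin and 90.6 CPM in control skin. Alas1, the form of the first enzyme found in all tissues, had 49.6 CPM in lecko skin and 51.0 CPM in control skin. Slc25a37, the mitochondrial iron importer, and Cpox had log2 fold changes of -0.09 and 0.08.

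Other red cell membrane genes also showed no member at an unadjusted p under 0.05, with 9 of 15 tested and a median log2 fold change of 0.01. The 4 with the highest CPM, not scaled to length, were Aqp1, a water channel (-0.08), Epb41, which ties spectrin to actin (0.07), Stom, the stomatin gene (0.01), and Tmod1, which caps actin filaments (-0.22). All 4 are also expressed in cells other than red cells.

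Among erythroid transcription factors, Gata1, which is also expressed in mast cells and megakaryocytes, was the single gene at an unadjusted p under 0.05 by edgeR, where DESeq2 gave 0 and limma-voom 2. It had 12, 6 and 10 counts in lecko libraries 1 to 3, against 22, 14 and 18 counts in controls 1 to 3. The groups did not overlap, and the log2 fold change of -0.96 (SE 0.35) missed the threshold (edgeR, adjusted p = 0.53). Ldb1, Zfpm1, Bcl11a and Lmo2 had the highest CPM of this list, with log2 fold changes of -0.05, -0.12, -0.11 and 0.27. The list had a median of -0.05 over 7 tested genes.

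Of 7 receptor and iron transport genes, Steap3, an endosomal ferrireductase of erythroid cells, had the smallest p. It had 53.9 CPM in lecko skin and 39.9 CPM in control skin, with a log2 fold change of 0.44 (SE 0.15) that missed the threshold (edgeR, adjusted p = 0.53). Tfrc, the transferrin receptor, Slc40a1, the iron exporter, and Slc11a2, an iron importer, had log2 fold changes of -0.06, 0.31 and -0.02. The list's median was 0.08, and turned negative without lecko 3 (-0.03), control 1 (-0.01) or control 3 (-0.03).

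In the list of cytosolic and maturation genes, 9 were tested, of which 2 stood higher and 1 lower with an unadjusted p under 0.05 by edgeR, beside 4.89% higher and 3.68% lower over all genes. Bpgm, the enzyme that makes bisphosphoglycerate and so tunes oxygen release in red cells, had 424, 613 and 530 counts in lecko libraries 1 to 3, against 364, 403 and 426 counts in controls 1 to 3. Like the globins it was highest in lecko 2, and as for Hba-a1 and Hbb-bt lecko 1 lay below control 3, and its log2 fold change was 0.37 (SE 0.13). Tent5c, a poly(A) polymerase, had a log2 fold change of 0.35 (SE 0.13), with no overlap between groups. Prdx2, an abundant red cell peroxidase that other cells also express, had -0.14 (SE 0.05) and no overlap. All 3 missed the threshold (edgeR, adjusted p = 0.53 for each). Bnip3l, which removes mitochondria from maturing red cells, and Cat, the catalase gene, had log2 fold changes of 0.10 and -0.02.

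**Figure D4:**
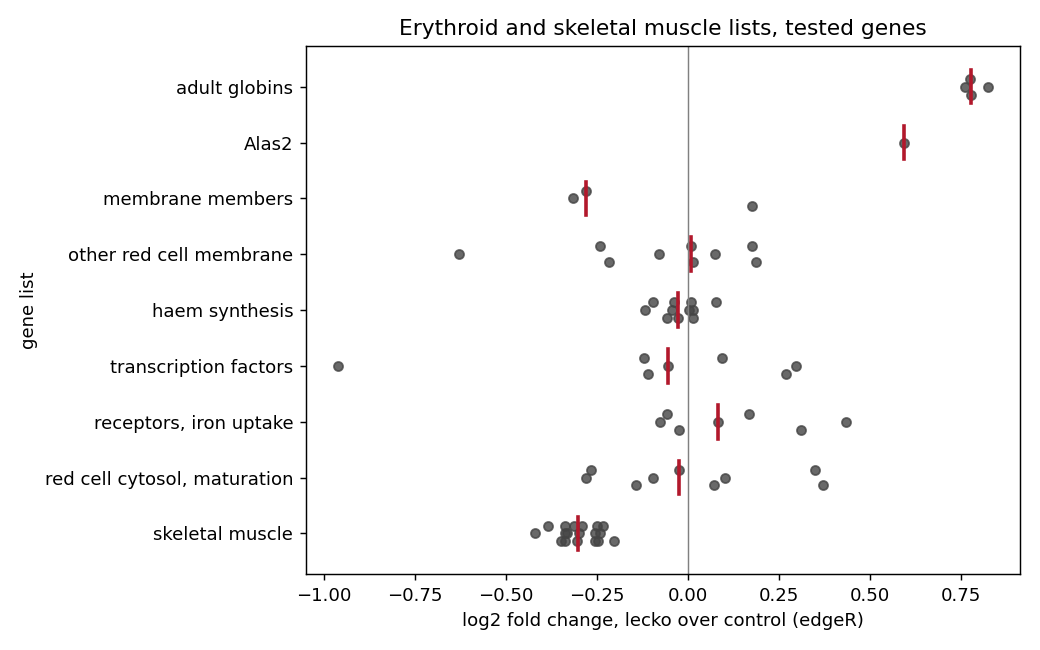
Log2 fold change of lecko over control (horizontal axis, edgeR) of each tested gene in the red cell lists and the skeletal muscle list (rows). Grey points are genes, and the red bar is the list's median, at 0.78 for the globins and -0.30 for skeletal muscle. Ank1 and Sptb, at -0.32 and -0.28, lie among the values of the muscle genes and Slc4a1 lies at 0.18, and the leftmost point is Gata1 at -0.96.

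Other constituents of blood and vessels were set beside the globins, and their part in the globin levels was not tested. Platelet genes, 8 of 8 listed with Gp9 and Treml1 at 0 counts in some libraries, summed to 43.2 to 46.8 CPM in lecko skin and 41.2 to 50.9 CPM in control skin. Pf4 was the largest part of this sum, with means of 26.2 CPM in lecko skin and 24.2 CPM in control skin. Ppbp and Gp5 had at most 6 counts in any library. Neutrophil genes, 8 of 8 listed with Ly6g at 0 counts in all libraries but lecko 3 and Ngp, Camp and Ltf at 0 in some, summed to 10.6 to 15.01 CPM in lecko skin and 6.73 to 10.4 CPM in control skin. Most of this sum came from Cxcr2, with means of 7.03 CPM in lecko skin and 5.95 CPM in control skin, and Csf3r (4.05 and 2.22 CPM). Mmp8 went the other way, with 13 counts summed over lecko skin and 25 over control skin. Pan-leukocyte genes, 8 of 8 listed, summed to 353 to 468 CPM in lecko skin and 231 to 355 CPM in control skin, and lecko 2, the highest in globin, was the lowest lecko library in these. Of single markers, edgeR gave an unadjusted p under 0.05 to Itga2b (lower), Csf3r (higher), the leukocyte genes Ptprc, Cd48, Cd52, Coro1a and Lcp1 (higher), the endothelial genes Pecam1, Cdh5, Emcn, Cldn5, Tie1, Esam and Robo4 (lower) and the lymphatic genes Ccl21a and Reln (lower). None of these was called by edgeR, while DESeq2 called 1 leukocyte gene higher and 1 lymphatic gene lower. Blood and pan-endothelial genes, 10 of 10 listed, summed to 377 to 419 CPM in lecko skin and 449 to 486 CPM in control skin, below the controls where the globins were above them. Lymphatic endothelial genes, 7 of 7 listed, summed to 311 to 338 CPM in lecko skin and 359 to 409 CPM in control skin.

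Sex was set beside the globins too. Control 1, the control with few Y-linked counts, had the lowest globin sum of the 6 libraries. With sex as a covariate, control 1 is the single control that enters the lecko difference, since every lecko library has few Y-linked counts. The log2 differences of that fit were 1.16 for Hba-a1, 1.22 for Hba-a2, 1.17 for Hbb-bs, 1.07 for Hbb-bt and 0.84 for Alas2. They were -0.30 for Ank1 and -0.27 for Sptb. Leaving out controls 2 and 3, a setting chosen after seeing the data, makes the same comparison and is no separate check, with log2 differences of 1.16, 1.21, 1.17, 1.07 and 0.83 for the same 5 genes and -0.31 and -0.28 for Ank1 and Sptb. Without lecko 2, in contrast, the log2 differences of the globins lay between 0.53 and 0.59.

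Among 13201 other genes, those whose log2 CPM ran most like each group of members over the 6 libraries were ranked by Pearson's r, as a description. For the mean of the 4 globins the closest were Rab37, Shisa2, Cdon, Ptgir and Rab3il1, with r between 0.988 and 0.9945. For Ank1 and Sptb they were Ap2s1, Cacna1s, Mdp1, Ppp1r13l and Jph1, with r between 0.992 and 0.999. Cacna1s, the voltage sensor of skeletal muscle, was itself in the muscle list, and Jph1 encodes a junctophilin of muscle membranes. Ap2s1, the closest of all, Mdp1 and Ppp1r13l were not in the muscle list, and neither was Jph1. For Slc4a1 and Epb42 the closest were Chd6, Vamp1, Numa1, Cep95 and Cep89, with r between 0.981 and 0.991. With 13201 genes ranked over 6 libraries, values this high were reached for every group of members, also for these sparse genes.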

How the data were processed

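Gene-level estimated counts of 6 libraries were deposited by the authors; the unit was read from the header and from the 9.60 to 10.5% of values in each library that were fractional. RSEM 1.3.1, Bowtie2 2.4.5 and HISAT2 2.2.1 are listed with GRCm38.p6 per the submitters' processing notes, which state no order; the annotation and the strand setting were not given in the sources used here. Such counts apportion reads between near-identical genes, and with strand unknown, overlapping antisense genes cannot be separated.

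Groups and replicate numbers come from the sample titles. After rounding, filterByExpr (count of at least 10, total of at least 15) removed 3626 genes. Libraries were scaled by TMM and compared with edgeR 4.0.16 in R 4.3.3 (quasi-likelihood test, robust setting, no covariate), with Benjamini-Hochberg adjustment over all genes tested. SE is the log2 fold change divided by the square root of its F statistic. Log2 CPM used a prior count of 2. Chi-square per degree of freedom was 8.14 to 16.8 for library pairs of 1 group, so no library was taken for a duplicate.

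The members and gene lists were chosen with earlier results of these data known. The rule for named genes took the members, Kdr, list genes at an unadjusted p under 0.05, the 4 with the highest mean CPM of each list and the 5 genes most like each group of members; those of the platelet, neutrophil, leukocyte and endothelial lists are given as sums, and sparse red cell markers and single-library remarks were added after their values were seen. Alternatives were DESeq2 1.42.0, limma-voom (limma 3.58.1), other scalings and filters, a replicate block, sex from Y-linked counts (threshold 10 CPM) and each library left out. The scripts were tested on simulated counts. RefSeq identifiers matched for 18432 genes. Some genes that the rule would name are not reported here.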

Additional observations from a re-analysis of the deposited data

How the results depend on the processing

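The contrast of globins with membrane genes lay between 0.55 and 1.26 on the log2 scale over 21 alternatives. It kept its sign, but most of these settings could not have changed it. The contrast is taken within each library, so other scalings and filters left it at 0.89. Its groups did not overlap, so leaving out 1 library could not turn it negative. The log2 differences of the 4 globins, Alas2, Ank1 and Sptb also kept their sign under 18 alternatives each, Ank1 between -0.40 and -0.26. For Hba-a2, Hbb-bs, Ank1 and Sptb the groups did not overlap, so leaving out 1 library could hardly change the sign. Other scalings and filters barely moved the values, so the number of alternatives is no measure of support. Slc4a1 changed sign without lecko 3 and Epb42 in 3 of 18 settings. No member was called in any setting. Of all genes, DESeq2 called 24 higher and 8 lower, against 2 and 1 by edgeR, and over single libraries left out 2 to 36 were called higher (36 without control 2, 4 without lecko 2) and 1 to 5 lower (5 without control 1, 2 without lecko 2). Medians of the 5 tested erythroid lists lay between -0.13 and 0.15 over 17 alternatives and changed sign in 3 to 8 of them. Fits without 1 or 2 controls assume that the remaining libraries vary alike.

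Replicate numbers were not taken as pairs: deviations of same-numbered lecko and control libraries correlated over genes at 0.34, -0.07 and 0.04. With a replicate block, 2 genes were called higher and 1 lower, and the globin against membrane contrast was 0.89. Control 1 correlated best with lecko 1, the same number, while control 2 correlated best with lecko 3 and control 3 with lecko 2. Depth limits Epb42 and Slc4a1, at 3 to 35 counts per library.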

Other observations

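Non-erythroid relatives of the members showed little difference between the groups. Of 12 related genes for ankyrins, spectrins, anion exchangers, Epb41-like proteins and transglutaminases, all were tested and had a median log2 fold change of 0.01, with 0 called by edgeR, DESeq2 or limma-voom. Ank2 (0.27, SE 0.11) and Epb41l1 (0.14, SE 0.06) were the 2 at an unadjusted p under 0.05 by edgeR, both higher with no overlap between groups, where 4.89% of all genes were higher at that p and 7.37% higher without overlap. The spectrins Sptbn1 and Sptan1, which other tissues use in place of the red cell forms, had log2 fold changes of 0.03 and -0.04, and Epb41l2 had 0.09. The globins of other tissues, Mb (myoglobin, of muscle), Cygb (cytoglobin) and Ngb (neuroglobin), had -0.15, 0.05 and 0.11.

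Genes that clear haem and haemoglobin or store iron had a median log2 fold change of 0.11 over 6 tested genes, with 0 called by edgeR, DESeq2 or limma-voom. Hmox1, which breaks down haem, had 1393, 1355 and 1351 counts in lecko libraries 1 to 3, against 1167, 1289 and 1073 counts in controls 1 to 3, a log2 fold change of 0.19 (SE 0.07) and the single one at an unadjusted p under 0.05 by edgeR. Cd163, the macrophage receptor for haemoglobin bound to haptoglobin, had 74.5 CPM in lecko skin and 56.5 CPM in control skin, with overlapping groups. The ferritin genes Fth1 and Ftl1 had log2 fold changes of 0.00 and 0.02. Pan-leukocyte genes summed to a mean of 403 CPM in lecko skin and 291 CPM in control skin, with overlap, and their part in the levels of Hmox1 and Cd163 was not tested.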
